A study of Homo sapiens with 12 samples.

Results

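The genes of the endoplasmic reticulum (ER) folding machinery, the translocon and the unfolded protein response were followed across 12 expression arrays. A list of 41 gene symbols, chosen with earlier results of these data known, set the membership. Every probe annotated with one of these symbols, under a current or older name, was taken, with no use of its values. Of the 41 genes, 39 had at least 1 probe, for 53 probes in all. HERPUD1 and SEC61G had none and were not analysed here. A filter on dim probes kept 36 of the 41 genes and 47 of the 53 probes, against 12048 of the 20041 genes with a probe in the whole series. PDIA3, ERN1 and DERL3 were not kept, because their probes were detected on at most 1 array. Of the 36 kept genes, 34 were detected on all 12 arrays.

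The cells were MDA-MB-231, an established human triple-negative breast cancer line of mesenchymal appearance, transfected with 100 nM siRNA in every group. The labels give 9 arrays an siRNA pool against ARF1, the GTPase that brings the COPI vesicle coat to the Golgi, and give 3 arrays a scramble siRNA. By source name the 9 fall into 3 sets of 3 arrays, ARF-1, ARF-2 and ARF-4, and no label explains these numbers. The study set out to examine ARF1 in the epithelial-mesenchymal transition by loss of function.

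Secreted and membrane proteins enter the ER through the SEC61 translocon, lose their signal peptide to the signal peptidase, and fold with the help of chaperones, lectins and protein disulfide isomerases. When unfolded proteins build up, the sensors IRE1 (gene ERN1), ATF6 and PERK (gene EIF2AK3) are released from the chaperone BiP (gene HSPA5). IRE1 splices the mRNA of XBP1 and ATF6 is cleaved, and the resulting transcription factors raise genes for chaperones and for ER-associated degradation, while PERK slows translation and favours ATF4. COPI vesicles return escaped ER chaperones from the Golgi through KDEL receptors.

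Mean raw signal ranged from 303.4 to 518.3 per array and 39.14% to 42.81% of probes were detected. All 7 genes listed as markers of MDA-MB-231 were detected on all 12 arrays. Of 6 listed luminal or epithelial genes, ESR1, PGR and CDH1 were detected on 0 arrays, FOXA1 on 1, GATA3 on 4 and KRT8 on 12. Of other cell types, the leukocyte genes PTPRC, CD3E and ITGAM, the plasma cell genes JCHAIN and POU2AF1, and the endothelial and adipocyte genes CDH5, VWF and PLIN1 were detected on 0 arrays. On these lists MZB1 was detected on 5 arrays, ADIPOQ on 6, IRF4 on 7, and SDC1, CD14 and PECAM1 on 12. CD14 rose by 0.54 in ARF-1 and by 1.01 in ARF-2 and differed by 0.00 in ARF-4 (adjusted p = 0.00858, 0.000164 and 0.991). PECAM1 rose by 0.38 in ARF-1 and by 0.70 in ARF-2 and fell by 0.89 in ARF-4 (adjusted p = 0.00475, 9.18e-05 and 5.68e-05). MZB1, ADIPOQ, IRF4 and SDC1 passed in no set against scramble. None of the 3 ARF1 probes passed as lower on the arrays labelled ARF1 siRNA. The brightest (ILMN_1802203) read 11.59, 11.71 and 11.63 in normalized log2 signal on the scramble arrays and 11.64 to 11.87 on the other 9, a difference of 0.14 ± 0.08 (SE; adjusted p = 0.321, limma). The other 2 probes differed by 0.16 (adjusted p = 0.399) and -0.18 (adjusted p = 0.453). A fall of the targeted transcript was therefore not shown, and the groups are called by their labels below. Separate cultures are not mentioned in the labels, so the p-values cover only the spread among these arrays, which may be technical.

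Promoters are shown because this pathway has known response elements in DNA. Those printed are of the members that passed over the 9 arrays labelled ARF1 siRNA, and of HSPA5, which did not pass there. The ER stress response element (ERSE, letters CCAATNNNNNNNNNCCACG), bound by ATF6 with NF-Y, the element ERSE-II (ATTGGNCCACG) and the core of the unfolded protein response element (UPRE, TGACGTGG), bound by XBP1, were searched on both strands. The search covered the window from 250 bases before to 50 bases after each RefSeq start (GRCh38.p14). ERSE was present in 25 of 27305 genes with a window (0.0916%) and in 8 of 37 members with a window (21.6%), which were CALR, CANX, CRELD2, HSP90B1, HSPA5, PDIA6, SERP1 and XBP1. ERSE-II was present in 0.0696% of all genes and in the members HERPUD1, HYOU1 and SDF2L1. The UPRE core was present in 0.927% of all genes and in HYOU1, SSR3, SSR4 and TXNDC5. At least 1 of the 3 motifs was present in 14 of 37 members and in 1.08% of all genes. A match is a description of the letters, not a measured binding site. The elements were chosen because they are known in this pathway, so the higher share among members is not a result of these data. The 250 bases before the start are printed below in the direction of transcription, with motif matches in capitals. They lie at chr9:125241344-125241593 on the minus strand (HSPA5), chr12:103930160-103930409 on the plus strand (HSP90B1), chr2:10812786-10813035 on the minus strand (PDIA6), chr22:28800570-28800819 on the minus strand (XBP1), chr11:119057206-119057455 on the minus strand (HYOU1) and chr3:51385041-51385290 on the plus strand (MANF). PDIA6 and XBP1 have 2 windows each, and the window with a match is shown. The windows of EDEM1 and DNAJB9, which passed in single sets only, hold none of the 3 motifs and are not shown.
HSPA5: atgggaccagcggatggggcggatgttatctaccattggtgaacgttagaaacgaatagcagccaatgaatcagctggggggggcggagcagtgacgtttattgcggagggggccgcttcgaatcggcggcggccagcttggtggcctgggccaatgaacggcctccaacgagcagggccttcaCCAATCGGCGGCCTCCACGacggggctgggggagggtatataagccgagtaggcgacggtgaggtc
HSP90B1: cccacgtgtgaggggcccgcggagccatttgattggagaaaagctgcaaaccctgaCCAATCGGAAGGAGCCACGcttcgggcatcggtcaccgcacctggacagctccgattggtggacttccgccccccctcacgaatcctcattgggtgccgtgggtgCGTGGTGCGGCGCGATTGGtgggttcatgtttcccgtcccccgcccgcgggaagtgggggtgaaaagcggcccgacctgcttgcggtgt
PDIA6: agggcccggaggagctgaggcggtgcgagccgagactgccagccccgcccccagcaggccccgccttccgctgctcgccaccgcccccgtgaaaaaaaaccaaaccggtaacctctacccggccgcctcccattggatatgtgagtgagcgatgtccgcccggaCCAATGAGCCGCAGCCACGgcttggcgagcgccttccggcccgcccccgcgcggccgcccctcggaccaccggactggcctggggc
XBP1: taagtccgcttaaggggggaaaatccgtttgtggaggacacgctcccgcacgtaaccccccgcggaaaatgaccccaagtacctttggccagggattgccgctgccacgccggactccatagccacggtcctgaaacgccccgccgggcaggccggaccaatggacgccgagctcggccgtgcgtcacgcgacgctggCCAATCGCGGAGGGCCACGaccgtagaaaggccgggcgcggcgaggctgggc
HYOU1: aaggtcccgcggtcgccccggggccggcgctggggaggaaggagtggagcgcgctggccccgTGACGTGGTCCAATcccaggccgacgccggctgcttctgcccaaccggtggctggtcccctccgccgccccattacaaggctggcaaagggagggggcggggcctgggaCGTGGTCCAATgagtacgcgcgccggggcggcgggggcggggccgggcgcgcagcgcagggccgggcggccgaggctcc
MANF: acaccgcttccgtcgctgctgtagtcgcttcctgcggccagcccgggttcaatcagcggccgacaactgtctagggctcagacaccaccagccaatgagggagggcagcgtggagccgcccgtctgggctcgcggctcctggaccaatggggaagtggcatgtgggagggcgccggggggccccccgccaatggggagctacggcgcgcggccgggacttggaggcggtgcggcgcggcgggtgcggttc

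In HSPA5 the ERSE match ran from base -66 to -48 relative to the start, and in XBP1 from -52 to -34. PDIA6 carried its match from -86 to -68. HSP90B1 carried 2, from -194 to -176 in the forward and from -89 to -71 in the reverse orientation. HYOU1 held no ERSE match. It held 2 reversed ERSE-II matches, from -185 to -175 and from -79 to -69, and a UPRE core from -188 to -181 that overlaps the first of them. None of the 3 motifs was found in the MANF window.

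Across the 9 arrays labelled ARF1 siRNA, 4 of the 36 members were higher than on scramble and 1 was lower. HSP90B1, PDIA6, XBP1 and MANF rose, and HYOU1 fell. These 5 members are 13.9% of the 36, near the 12.5% of all 12048 genes called in the same fit (limma, Benjamini-Hochberg adjusted p below 0.05), of which 6.5% were higher and 5.99% lower. The 9 arrays did not overlap the 3 scramble arrays for 7 members, against 14.8% of all genes. At an unadjusted p below 0.05 there were 10 members, 7 higher and 3 lower. Of all 12048 genes, 1788 were higher and 1841 lower by that rule. The median difference of the 36 members was 0.04 on the log2 scale, and that of all genes was -0.00. The share of members called was thus near that of all genes, and the results below concern single genes.

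**Figure D1:**
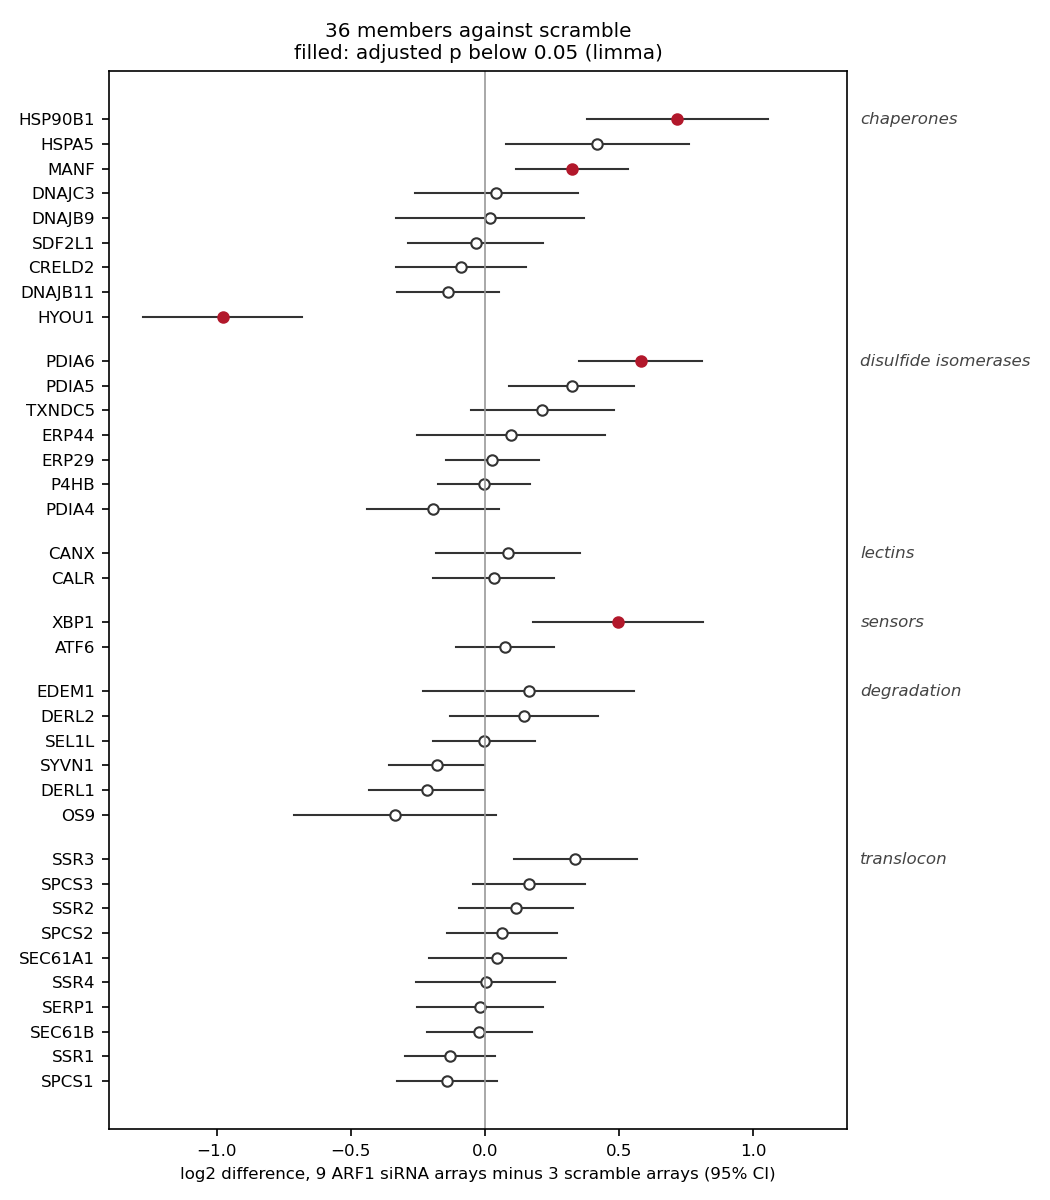
Log2 difference in normalized signal between the 9 arrays labelled ARF1 siRNA and the 3 scramble arrays for the 36 kept members, grouped by role, with 95% confidence intervals as bars. The filled points are HSP90B1, MANF, PDIA6 and XBP1 to the right of 0 and HYOU1 to the left, and the other 31 members are open.

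Among the chaperones of the ER lumen, HSP90B1 (GRP94), the HSP90 of this compartment, read 11.82, 11.81 and 11.99 on the scramble arrays in normalized log2 signal. It read 12.79, 12.90 and 12.70 on ARF-1, 12.78, 12.71 and 12.72 on ARF-2, and 12.12, 12.18 and 12.42 on ARF-4. Every array labelled ARF1 siRNA was above every scramble array, and the ARF-4 arrays lay between scramble and the other sets. The rise over the 9 arrays was 0.72 ± 0.16 (SE; 1.64-fold; 95% CI 0.38 to 1.05; adjusted p = 0.0107). It missed the threshold without scramble array 1 (adjusted p = 0.0565) or scramble array 2 (0.0613). The ARF-1 set rose by 0.92 ± 0.10 (adjusted p = 5.88e-05), the ARF-2 set by 0.86 ± 0.10 (adjusted p = 9.76e-05) and the ARF-4 set by 0.37 ± 0.10 (adjusted p = 0.0453). The ARF-4 call was lost when any single one of the 12 arrays was left out (adjusted p 0.0507 to 0.139).

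HSPA5 (BiP), the HSP70 chaperone of the ER and the gene most often used to read out the unfolded protein response, read 8.40, 8.38 and 8.37 on the scramble arrays. Its values were 9.08, 9.12 and 9.00 on ARF-1, 8.86, 9.01 and 8.82 on ARF-2, and 8.53, 8.43 and 8.35 on ARF-4. ARF-1 and ARF-2 stood clear of scramble, whereas ARF-4 overlapped it. HSPA5 rose by 0.69 ± 0.09 in the ARF-1 set (1.61-fold; adjusted p = 0.000171) and by 0.51 ± 0.09 in ARF-2 (1.43-fold; adjusted p = 0.00124). In ARF-4 the difference was 0.06 ± 0.09 (95% CI -0.13 to 0.25; adjusted p = 0.757). Over all 9 arrays it was 0.42 ± 0.16 and did not pass (adjusted p = 0.105). It passed without ARF-4 array 3 (0.48; adjusted p = 0.0425), and with 4 group means in place of 2 (adjusted p = 0.00131).

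HYOU1 (GRP170), an HSP70 relative that acts as a nucleotide exchange factor for HSPA5, went the other way. Its scramble arrays read 9.17, 9.14 and 9.27, and the sets read 8.12, 8.04 and 7.93 on ARF-1, 8.20, 7.89 and 8.36 on ARF-2, and 8.41, 8.55 and 8.45 on ARF-4. No array labelled ARF1 siRNA reached the scramble arrays. HYOU1 fell by 0.98 ± 0.14 over the 9 arrays (1.97-fold; 95% CI -1.27 to -0.68; adjusted p = 0.000704), and by 1.16, 1.04 and 0.72 in the respective sets ARF-1, ARF-2 and ARF-4 (adjusted p = 3.05e-05, 7.52e-05 and 0.00268). A second probe (ILMN_2141790) fell by 0.85 ± 0.14 (adjusted p = 0.00172).

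MANF, a small secreted protein that binds HSPA5, read 11.47, 11.42 and 11.44 on the scramble arrays. It read 11.80, 11.77 and 11.88 on ARF-1, 11.76, 11.59 and 11.66 on ARF-2, and 11.82, 12.02 and 11.64 on ARF-4. The scramble arrays were the lowest 3 of the 12. MANF rose by 0.32 ± 0.10 over the 9 arrays (1.25-fold; adjusted p = 0.0464), a call lost when scramble array 1, 2 or 3 was left out (0.128, 0.159 and 0.145), without any ARF-1 array, without ARF-2 array 1 or 3 and without ARF-4 array 1 (0.05 to 0.072 for those 6). It was also lost with a random block for the source name, a model that lets the 3 sets differ at random (adjusted p = 0.217), and with median scaling (adjusted p = 0.0642). MANF rose by 0.37 in the ARF-1 set (adjusted p = 0.0187) and by 0.38 in the ARF-4 set (adjusted p = 0.0402), and differed by 0.22 in the ARF-2 set (adjusted p = 0.138). The ARF-1 call was lost without scramble array 2 (0.0546) or ARF-1 array 3 (0.0623), and the ARF-4 call without 9 of the 12 single arrays (0.05 to 0.133).

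The remaining HSPA5 partners differed little from scramble on the 9 arrays. DNAJB9 (ERdj4), a J-domain cochaperone, read 8.03, 7.95 and 8.00 on scramble, 8.21, 8.06 and 7.91 on ARF-1, 8.43, 8.19 and 8.29 on ARF-2, and 7.60, 7.76 and 7.63 on ARF-4. Scramble lay below all ARF-2 arrays, above all ARF-4 arrays and within the range of ARF-1. DNAJB9 rose by 0.32 ± 0.10 in ARF-2 (adjusted p = 0.0405), while the difference was -0.33 ± 0.10 in ARF-4 (adjusted p = 0.0713) and 0.02 ± 0.16 over the 9 arrays (adjusted p = 0.956). The ARF-2 call was lost without any scramble array, ARF-2 array 1 or 3 or ARF-1 array 2 (adjusted p 0.0530 to 0.141). DNAJC3 (p58IPK), another J-domain protein, and SDF2L1, a partner of DNAJB11, passed in no set against scramble. DNAJC3 differed by -0.05 in ARF-1, by -0.14 in ARF-2 and by 0.31 in ARF-4, and SDF2L1 by -0.17, -0.11 and 0.18. For DNAJB11 and CRELD2 the set differences ran from -0.20 to 0.05, and neither passed in any comparison.

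Of the 7 kept disulfide isomerases and relatives, which form and rearrange disulfide bonds in the ER, PDIA6 and PDIA5 passed in at least 1 comparison. PDIA6 read 8.09, 8.58 and 8.17 on scramble, 8.92, 8.98 and 8.85 on ARF-1, 8.81, 8.94 and 8.89 on ARF-2, and 8.78, 8.69 and 8.89 on ARF-4. Its highest scramble array came close to the lowest ARF-4 array without overlap. PDIA6 rose by 0.58 ± 0.11 over the 9 arrays (1.5-fold; adjusted p = 0.00385) and by 0.64, 0.60 and 0.51 in the respective sets ARF-1, ARF-2 and ARF-4 (adjusted p = 0.00237, 0.0037 and 0.0244). With a random block for the source name the call over the 9 arrays was lost (adjusted p = 0.0519). The ARF-4 call was lost without scramble array 1 or 3 or ARF-4 array 1 or 3 (0.0629 to 0.0932). PDIA5 read 7.20, 6.85 and 6.94 on scramble, 7.46, 7.34 and 7.51 on ARF-1, 7.14, 7.41 and 7.24 on ARF-2, and 7.14, 7.25 and 7.40 on ARF-4. ARF-1 alone stood clear of scramble, and there PDIA5 rose by 0.44 ± 0.12 (adjusted p = 0.0165), a call lost without scramble array 2 or 3 or ARF-1 array 3 (0.0561 to 0.0692). PDIA4, P4HB, TXNDC5, ERP29 and ERP44 passed in no comparison, with differences of -0.19 to 0.21 over the 9 arrays. The widest set difference among them was 0.41 for TXNDC5 in ARF-4 (adjusted p = 0.0528).

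Of the stress sensors and their transcription factor, XBP1 changed and ATF6 did not pass. XBP1, the transcription factor downstream of IRE1, read 9.99, 10.02 and 10.20 on scramble, 10.70, 10.76 and 10.85 on ARF-1, 10.63, 10.70 and 10.76 on ARF-2, and 10.24, 10.30 and 10.17 on ARF-4. ARF-1 and ARF-2 lay above all scramble arrays, and ARF-4 overlapped the highest of them. XBP1 rose by 0.70 ± 0.09 in ARF-1 (1.63-fold; adjusted p = 0.000183) and 0.62 ± 0.09 in ARF-2 (1.54-fold; adjusted p = 0.000435), and differed by 0.16 ± 0.09 in ARF-4 (95% CI -0.03 to 0.36; adjusted p = 0.31). Over the 9 arrays it rose by 0.50 ± 0.15 (adjusted p = 0.0442), a call lost when scramble array 1, 2 or 3 was left out (0.165, 0.159 and 0.0915) or any ARF-1 or ARF-2 array (0.0651 to 0.0708). It was also lost with a random block for the source name (adjusted p = 0.133), with median scaling (adjusted p = 0.061) and without the probe filter (adjusted p = 0.0721). Its second probe (ILMN_2365465) rose by 0.53 ± 0.13 (adjusted p = 0.0148). Splicing of the XBP1 transcript was not analysed here. The probe for the IRE1 gene ERN1 was detected on 0 arrays. ATF6 differed by 0.08 (95% CI -0.11 to 0.26; adjusted p = 0.624).

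**Figure D2:**
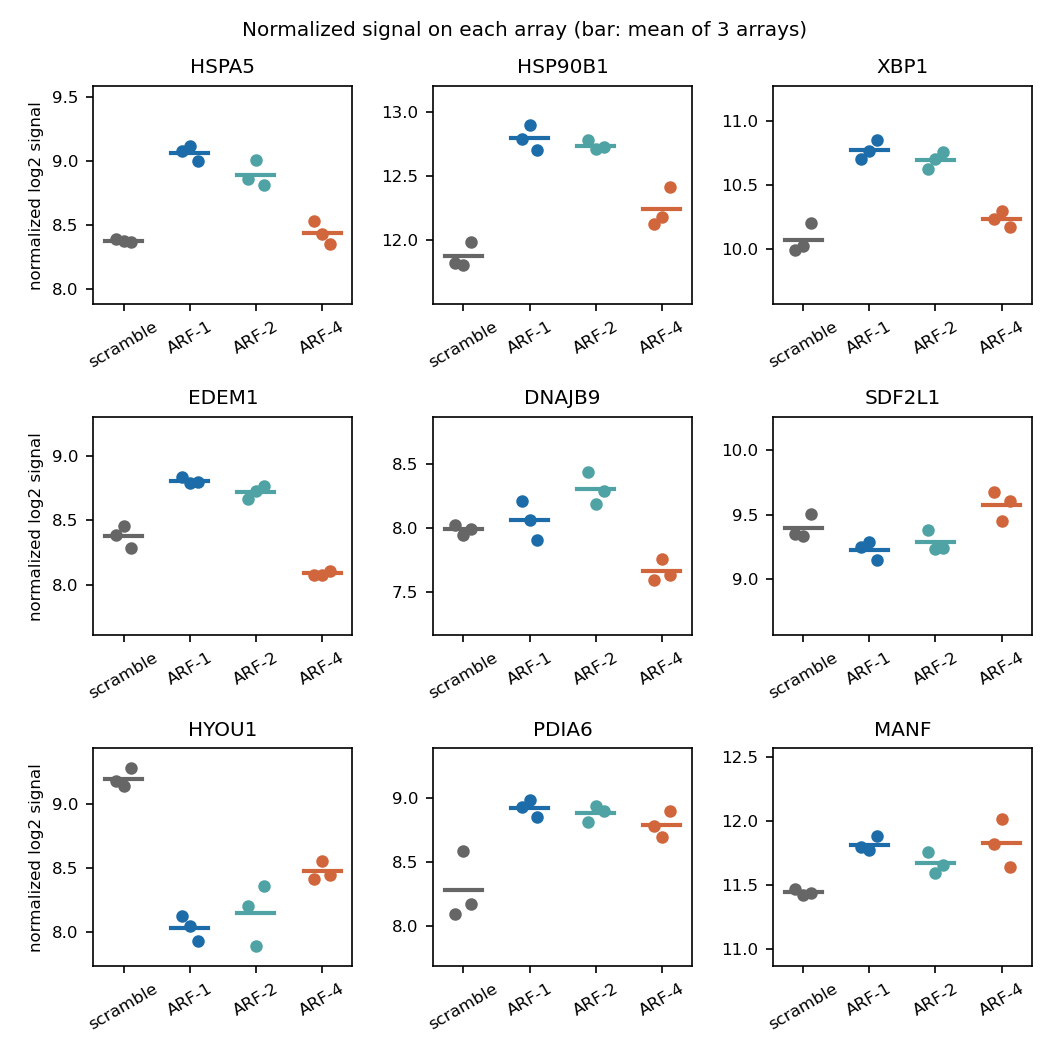
Normalized log2 signal of 9 members on each of the 12 arrays, with the mean of each group of 3 as a bar; all panels span the same height on the log2 axis, around different centres. HSPA5, XBP1 and EDEM1 are highest in ARF-1 and ARF-2, HYOU1 is lowest there, and PDIA6 and MANF are above scramble in all 3 sets.

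In ER-associated degradation, EDEM1 differed most between the sets. This mannosidase-like protein passes misfolded glycoproteins on for degradation. It read 8.39, 8.45 and 8.29 on scramble, 8.84, 8.79 and 8.80 on ARF-1, 8.67, 8.73 and 8.77 on ARF-2, and 8.08, 8.08 and 8.11 on ARF-4. ARF-1 and ARF-2 were above all scramble arrays and ARF-4 was below all of them. EDEM1 rose by 0.43 ± 0.08 in ARF-1 (adjusted p = 0.00206) and by 0.35 ± 0.08 in ARF-2 (adjusted p = 0.00825). It fell by 0.29 ± 0.08 in ARF-4 (adjusted p = 0.0473), a call lost when any single array was left out (0.0547 to 0.149). The difference over the 9 arrays was 0.16 ± 0.18 (adjusted p = 0.62), with sets of opposite sign in it.

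OS9, a lectin that delivers glycoproteins to the SEL1L and SYVN1 ubiquitin ligase complex, read 7.11, 6.60 and 7.07 on scramble and 6.86, 6.08 and 6.12 in ARF-1. The ARF-2 arrays read 6.72, 6.89 and 6.61 and the ARF-4 arrays 6.63, 6.75 and 6.65. All sets overlapped scramble. OS9 fell by 0.57 ± 0.20 in ARF-1 (adjusted p = 0.0489), and this call was lost without 10 of the 12 single arrays (0.0564 to 0.173). SEL1L, SYVN1, DERL1 and DERL2 passed in no comparison by their brightest probe. A second DERL2 probe (ILMN_1877068) read -0.72 in ARF-2 (adjusted p = 0.0115) where the brightest read 0.10 (adjusted p = 0.619), so the probes of DERL2, a channel component of retrotranslocation, disagreed.

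Of the 10 kept genes of the translocon, the TRAP complex and the signal peptidase, SSR3 passed in 1 comparison by its brightest probe. SSR3, a subunit of the TRAP complex beside the translocon, read 6.22, 6.12 and 6.08 on scramble, 6.42, 6.64 and 6.58 on ARF-1, 6.40, 6.30 and 6.67 on ARF-2, and 6.27, 6.37 and 6.63 on ARF-4. Scramble held the 3 lowest values. SSR3 rose by 0.41 ± 0.12 in ARF-1 (1.33-fold; adjusted p = 0.0284), which was lost without scramble array 2 or 3 or ARF-1 array 2 or 3 (0.0739 to 0.0951). It differed by 0.34 ± 0.11 over the 9 arrays (adjusted p = 0.0572). The channel subunits SEC61A1 and SEC61B, SSR1, SSR2, SSR4, SERP1 and the signal peptidase subunits SPCS1, SPCS2 and SPCS3 differed by -0.14 to 0.16 over the 9 arrays. SPCS3 had a second probe (ILMN_1667707) that rose by 0.54 ± 0.10 (adjusted p = 0.00526) while the brightest read 0.16 ± 0.10 (adjusted p = 0.309). That second probe rose by 0.51 in ARF-1, 0.54 in ARF-2 and 0.56 in ARF-4 (limma, adjusted p = 0.0087, 0.00689 and 0.0155). The lectin chaperones CALR and CANX, which hold glycoproteins until they fold, differed from scramble by 0.03 and 0.09 (adjusted p = 0.885 and 0.709).

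Set by set against scramble, 10 members were called in ARF-1 (27.8%, against 30.6% of all genes), 7 in ARF-2 (19.4%, against 28.9%) and 5 in ARF-4 (13.9%, against 9.79%). The ARF-1 count was 8 higher and 2 lower, with HYOU1 and OS9 as the lower members (15.2% of all genes were higher and 15.3% lower). In ARF-2, HYOU1 was the 1 lower member (14.7% and 14.1% of all genes). In ARF-4, HYOU1 and EDEM1 were lower (4.99% and 4.8% of all genes). The set did not overlap scramble for 16 members in ARF-1, 15 in ARF-2 and 14 in ARF-4, against 47.7%, 46% and 33.5% of all genes. The shares of members were near or under those of all genes in ARF-1 and ARF-2 and somewhat above it in ARF-4. There the count dropped to between 1 and 4 when single arrays were left out, beside 5.83% to 9.52% of all genes. With only the 6 arrays compared in the fit, the ARF-4 calls of HSP90B1, EDEM1, MANF and PDIA6 were lost (adjusted p = 0.112, 0.121, 0.106 and 0.0877), as were those of OS9 in ARF-1 (0.112) and DNAJB9 in ARF-2 (0.0625). These comparisons share the scramble arrays, so likeness between them is not evidence in itself. Of the 36 members, 22 passed in no comparison by their brightest probe, among them SPCS3 and DERL2, each with a second probe that passed. Their differences over the 9 arrays lay between -0.22 and 0.21, with 95% confidence intervals that reached from -0.44 to 0.48.

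**Figure D3:**
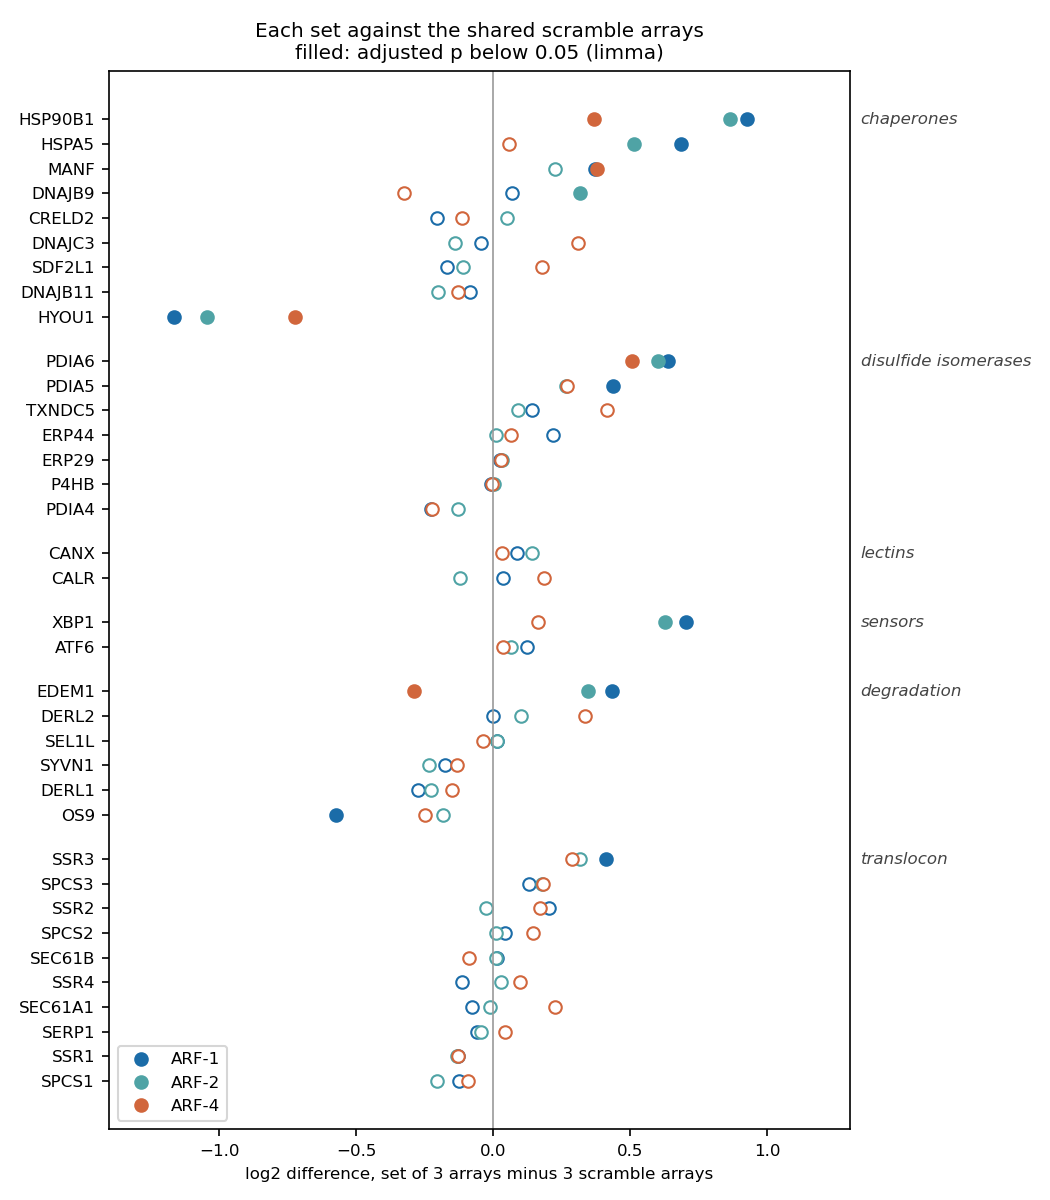
Log2 difference from the 3 shared scramble arrays for each set and each of the 36 kept members, grouped by role; filled points passed an adjusted p of 0.05. The ARF-4 points of HSPA5, HSP90B1, XBP1 and HYOU1 lie nearer to 0 than those of ARF-1 and ARF-2, and the ARF-4 point of EDEM1 lies on the other side of 0.

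The sets were also compared directly, without scramble values entering the difference. A moderated F-test among the 3 sets called 8 members (22.2%, against 24.1% of all genes): HSPA5, HSP90B1, HYOU1, DNAJB9, DNAJC3, SDF2L1, XBP1 and EDEM1. Against the mean of ARF-1 and ARF-2, ARF-4 differed in these 8 and in CALR (25% of members, against 29.1% of all genes, with 14.4% of all genes higher and 14.7% lower). The groups did not overlap for 11 members, against 30.1% of all genes. It was lower for EDEM1 (-0.68 ± 0.07; adjusted p = 3.68e-05), HSPA5 (-0.54 ± 0.08; adjusted p = 0.000309), HSP90B1 (-0.53 ± 0.09; adjusted p = 0.000987), DNAJB9 (-0.52 ± 0.09; adjusted p = 0.00113) and XBP1 (-0.50 ± 0.08; adjusted p = 0.00069). ARF-4 was higher for DNAJC3 (0.40 ± 0.10; adjusted p = 0.0131), HYOU1 (0.38 ± 0.10; adjusted p = 0.0167), SDF2L1 (0.32 ± 0.08; adjusted p = 0.0141) and CALR (0.23 ± 0.08; adjusted p = 0.0492). The second HYOU1 probe (ILMN_2141790) did not pass in this comparison (0.18 ± 0.13; adjusted p = 0.36) or in the F-test (adjusted p = 0.276). The second XBP1 probe (ILMN_2365465) passed in both (-0.38 ± 0.08 and adjusted p = 0.00382 in this comparison; adjusted p = 0.012 in the F-test).

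On the arrays, DNAJC3 read 5.21, 5.50 and 5.52 on ARF-1, 5.27, 5.36 and 5.32 on ARF-2, and 5.64, 5.75 and 5.91 on ARF-4, beside 5.41, 5.64 and 5.31 on scramble. SDF2L1 read 9.25, 9.28 and 9.15 on ARF-1, 9.38, 9.23 and 9.24 on ARF-2, and 9.67, 9.45 and 9.60 on ARF-4, beside 9.35, 9.34 and 9.50 on scramble. CALR read 10.04, 10.18 and 9.99 on ARF-1, 9.97, 9.80 and 9.98 on ARF-2, and 10.23, 10.22 and 10.22 on ARF-4, beside 9.97, 10.10 and 10.05 on scramble. For each of the 3 genes all ARF-4 arrays were above all ARF-1 and ARF-2 arrays. The direct difference was lost for CALR without 11 of the 12 single arrays (0.0524 to 0.12), for DNAJC3 without ARF-4 array 3 (0.0693), for HYOU1 without ARF-4 array 2 (0.0734) and for SDF2L1 without ARF-4 array 1 (0.0724). That of DNAJC3 was also lost with no background correction (0.0625), on the authors' value table (0.0617) and with a trended and robust prior (0.0564), and that of CALR with cyclic loess (0.055). The DNAJC3 probe is dim, with a scramble mean of 5.46 beside 4.38 for the ERN1 probe, detected on 0 arrays. Its difference ran from 0.14 to 0.47 over the alternatives, so its size depends on the processing.

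ARF-2 and ARF-1 differed in 0 of the 36 members (limma), against 0.0747% of all genes (0.0581% higher, 0.0166% lower). At an unadjusted p below 0.05 there were 3, DNAJB9 (0.25), CRELD2 (0.26) and SSR2 (-0.23), given as ARF-2 minus ARF-1. Of all 12048 genes, 595 were higher and 473 lower by that rule. The members for which the F-test gave no call include PDIA6 (adjusted p = 0.72) and MANF (adjusted p = 0.455). For PDIA6 the difference of ARF-4 from the other sets was -0.11, with a 95% CI of -0.34 to 0.12, and for MANF it was 0.08, with a 95% CI of -0.11 to 0.28.

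The members with an ERSE match can be read beside the promoters printed above. Of the 8, HSPA5, HSP90B1, PDIA6 and XBP1 were higher in both ARF-1 and ARF-2, beside 15.2% and 14.7% of all genes. CALR, CANX, CRELD2 and SERP1 passed in neither. Over all 8 the median difference was 0.36 in ARF-1, 0.33 in ARF-2 and 0.11 in ARF-4. The 21 kept members with a window and no match had medians of 0.01, 0.01 and 0.03. In ARF-1, 3 of these 21 were higher (MANF, PDIA5 and EDEM1) and 1 was lower (OS9). In ARF-2, 2 were higher (DNAJB9 and EDEM1), and in ARF-4, 1 was higher (MANF) and 1 lower (EDEM1). The 2 kept members with ERSE-II had medians of -0.67, -0.58 and -0.27, and the 4 with a UPRE core, HYOU1, SSR3, SSR4 and TXNDC5, of 0.01, 0.06 and 0.19. HYOU1, with 2 ERSE-II matches and a UPRE core, fell in all 3 sets, and SDF2L1, the other kept member with ERSE-II, passed in none of them against scramble. Of the other UPRE-bearing members SSR3 rose in ARF-1, and SSR4 and TXNDC5 passed in no set. Element-bearing members therefore included genes that rose, a gene that fell and genes that did not pass.

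A further 120 genes of the pathway were followed, of which 107 were kept. On the 9 arrays 16 were higher and 5 lower, with a median difference of 0.08. These 21 were 19.6% of the 107, against 12.5% of all genes (6.5% higher and 5.99% lower), which is also the share to set beside each list below. The lists were chosen with earlier results of these data known, so a share above that of all genes is not support in itself. In the list of KDEL receptors and ER retrieval, 3 of 9 kept genes rose and 0 fell over the 9 arrays (33.3% called, against 12.5% of all genes). They were KDELR3, which rose by 0.84 ± 0.19 (adjusted p = 0.013), and the p24 cargo receptors TMED4, up by 0.77 ± 0.13 (adjusted p = 0.00259), and TMED3, up by 0.34 ± 0.08 (adjusted p = 0.0163). KDELR1 differed by 0.23 ± 0.11 (adjusted p = 0.219) over the 9 arrays and rose by 0.27 in the ARF-1 set and 0.40 in the ARF-2 set (adjusted p = 0.0288 and 0.00404). When arrays were left out singly, TMED4 kept its call over the 9 arrays. KDELR3 lost it without scramble array 2 or 3 (adjusted p = 0.0691 and 0.0685), and TMED3 lost it without scramble array 1, 2 or 3 (adjusted p = 0.063 to 0.0871). With a random block for the source name TMED3 lost its call (adjusted p = 0.12), and TMED4 and KDELR3 kept it (adjusted p = 0.0224 and 0.0481). The ARF-1 call of KDELR1 was lost for 4 of the 12 arrays left out singly (adjusted p = 0.0739 to 0.0952), with median scaling (adjusted p = 0.058) and with only the 6 arrays compared (adjusted p = 0.0752).

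In the PERK arm and integrated stress response, 3 of 11 kept genes rose and 1 fell (36.4% called, against 12.5% of all genes). ATF4, its transcription factor, rose by 0.29 ± 0.09 (adjusted p = 0.0432). ASNS, the asparagine synthetase gene and an ATF4 target, rose by 0.98 ± 0.23 (adjusted p = 0.0136), and the pseudokinase gene TRIB3 by 0.60 ± 0.16 (adjusted p = 0.0298). PPP1R15A (GADD34), a phosphatase subunit that acts on eIF2 alpha, fell by 0.37 ± 0.08 (adjusted p = 0.0102). DDIT3 (CHOP) differed by 0.01 ± 0.10 (adjusted p = 0.977) and the PERK gene EIF2AK3 by -0.02 ± 0.18 (adjusted p = 0.952). By set, ASNS rose by 1.51 in ARF-1, 0.89 in ARF-2 and 0.54 in ARF-4 (adjusted p = 2.13e-06, 9.04e-05 and 0.00742). ATF4 and TRIB3 passed in ARF-1 and ARF-2 but not in ARF-4. The ARF-2 call of ATF4 was lost without 10 of the 12 single arrays. Over the 9 arrays the calls of ASNS (adjusted p = 0.0544 to 0.0779) and TRIB3 (adjusted p = 0.091 to 0.123) were lost when scramble array 1, 2 or 3 was left out. That of PPP1R15A was lost without scramble array 1 or 2 (adjusted p = 0.0552 and 0.0578). That of ATF4 was lost when any 1 scramble array, any 1 ARF-1 array or ARF-2 array 1 or 2 was left out (adjusted p = 0.0638 to 0.152). With a random block for the source name ASNS kept its call (adjusted p = 0.0432), while ATF4, TRIB3 and PPP1R15A lost it (adjusted p = 0.201, 0.0994 and 0.0866). ATF4 also lost it with median scaling (adjusted p = 0.0817) and cyclic loess (adjusted p = 0.0707), and TRIB3 without the probe filter (adjusted p = 0.0513).

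Among other ER-associated degradation factors, 4 of 22 rose and 1 fell (22.7% called, against 12.5% of all genes). FAM8A1, an accessory factor of the SYVN1 complex, rose by 0.77 ± 0.19 (adjusted p = 0.0218), UBAC2 by 0.50 ± 0.14 (adjusted p = 0.0351) and the ubiquitin-conjugating enzyme gene UBE2J1 by 0.38 ± 0.10 (adjusted p = 0.0232). Among other folding enzymes 3 of 22 rose and 1 fell (18.2% called). The thioredoxin-related membrane proteins TMX4 and TMX3 moved in opposite directions, by 0.55 ± 0.12 and -0.53 ± 0.12 (adjusted p = 0.00972 and 0.0115). SIL1, which like HYOU1 exchanges the nucleotide of HSPA5, rose by 0.33 ± 0.09 (adjusted p = 0.0321). The calls of FAM8A1 (adjusted p = 0.0554 to 0.111) and UBE2J1 (adjusted p = 0.0567 to 0.148) were lost when any 1 scramble array was left out, and that of UBAC2 when any 1 scramble, ARF-1 or ARF-2 array was (adjusted p = 0.0515 to 0.153). TMX3 lost its call without scramble array 1 or 2 (adjusted p = 0.0723 and 0.0771) and TMX4 without scramble array 2 (adjusted p = 0.0635). SIL1 lost it when any 1 scramble array or ARF-2 array 1 or 2 was left out (adjusted p = 0.0504 to 0.151). With a random block for the source name all 6 lost their calls, FAM8A1, UBAC2 and UBE2J1 at adjusted p = 0.0978, 0.128 and 0.156 and TMX4, TMX3 and SIL1 at adjusted p = 0.06, 0.0994 and 0.188. UBAC2 also lost it without the probe filter (adjusted p = 0.0534) and SIL1 with median scaling (adjusted p = 0.0589). By set against scramble, FAM8A1, UBAC2, UBE2J1, TMX4 and SIL1 passed in ARF-1 and ARF-2 but not in ARF-4. TMX3 passed in each set. The ARF-1 calls of SIL1 and UBE2J1 were lost without 9 and 4 of the 12 single arrays, and their ARF-2 calls without 4 and 2. TMX3 lost its ARF-2 and ARF-4 calls without 4 single arrays each.

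Of 20 kept genes for the signal recognition particle, its receptor and other translocon factors, 1 rose and 2 fell (15% called, near the 12.5% of all genes). GET1, a receptor subunit for tail-anchored proteins, rose by 0.66 ± 0.13 (adjusted p = 0.00544), while TRAM2, a translocon-associated protein, and SEC11C, a catalytic subunit of the signal peptidase, each fell by 0.57 (adjusted p = 0.0145 and 0.0234). DAD1 was the 1 of 15 oligosaccharyltransferase and glucose-trimming genes past the threshold, at 0.26 ± 0.08 (adjusted p = 0.046). CREB3L2, a membrane-bound transcription factor of the ER, was the 1 of 8 other sensors and factors that passed, at 0.36 ± 0.11 (adjusted p = 0.0497). GET1 lost its call without scramble array 2 (adjusted p = 0.0524). TRAM2 (adjusted p = 0.0608 to 0.0734) and SEC11C (adjusted p = 0.0739 to 0.109) lost it when any 1 scramble array was left out. DAD1 lost it for 11 of the 12 arrays left out singly, all but ARF-1 array 3 (adjusted p = 0.0503 to 0.164), and CREB3L2 when any 1 scramble, ARF-1 or ARF-2 array was left out (adjusted p = 0.0715 to 0.173). With a random block for the source name all 5 lost their calls, GET1 and TRAM2 at adjusted p = 0.0612 and 0.0604 and SEC11C, DAD1 and CREB3L2 at adjusted p = 0.0978, 0.218 and 0.176. DAD1 also lost it with median scaling (adjusted p = 0.0832) and cyclic loess (adjusted p = 0.072), and CREB3L2 with median scaling (adjusted p = 0.0607) and without the probe filter (adjusted p = 0.0537). By set against scramble, TRAM2, SEC11C and CREB3L2 passed in ARF-1 and ARF-2 but not in ARF-4. GET1 and DAD1 passed in each set, but their ARF-4 calls were lost without 10 and 8 of the 12 single arrays.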

How the data were processed

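The 12 arrays are Illumina HumanHT-12 V4.0 beadchips. The deposited file gives, per the file headers, a non-normalized bead signal (a linear intensity) for each probe and array, beside its detection p-value. Per the submitters' processing notes, BeadStudio 2.3.47 was used. A deposited value table of intensity values equals the quantile normalization of those signals (largest log2 difference 6.06e-07). Of 47323 probes, 12 without values were left out; 30113 listed probes carried 1 symbol in the platform annotation, 8 several and 17202 none.

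Signals were processed with neqc (offset 16, quantile normalization, log2) in limma 3.58.1 under R 4.3.3. Probes with a detection p-value below 0.05 on at least 3 of 12 arrays were kept (22195 probes, 12048 genes), and the kept probe of highest mean stood for each gene. The number of arrays limits the precision. The 9 arrays were compared with the 3 scramble arrays as 2 condition means, so that differences between sets count as error. The sets were contrasts of 4 group means, with a moderated F-test among them. All tests were two-sided, and their p-values were adjusted by Benjamini-Hochberg across the kept probes, with a threshold of 0.05. The fits were also run on simulated data in which the 3 sets did not differ. That run does not cover the differences between sets seen here, and its outcome is not given. A fold change understates that of dim probes because of the offset.

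The members and gene lists were chosen with earlier results of these data known. Every array is given for members past the threshold in any comparison. Of each further pathway list, up to 3 genes with the smallest adjusted p among those past the threshold on the 9 arrays were named, with ATF4, DDIT3, EIF2AK3 and KDELR1. Alternatives covered the background correction, normalization, probe filter, probe choice, variance prior, replicate block, model of the sets (random block with statmod 1.5.0), arrays in the fit and leaving out single arrays; a fit without ARF-4 was added after the data were seen. Promoter sequences are from RefSeq (GRCh38.p14); 37 of 41 members matched a window.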

Additional observations from a re-analysis of the deposited data

Results flagged for a closer look

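The 3 sets of arrays labelled ARF1 siRNA differed from one another in a test of the difference itself (moderated F-test in limma, adjusted p in parentheses) for the members EDEM1 (0.000143), HSPA5 (0.000901), XBP1 (0.00236), DNAJB9 (0.00244), HSP90B1 (0.00344), DNAJC3 (0.036), SDF2L1 (0.0398) and HYOU1 (0.0414). Among the further pathway genes named above they differed for ASNS (0.000163), KDELR3 (0.000808), TRIB3 (0.00267), TRAM2 (0.00301), UBAC2 (0.0106), KDELR1 (0.014), SEC11C (0.0153), FAM8A1 (0.0243), CREB3L2 (0.032), TMED4 (0.0418) and TMX4 (0.0482). The F-test called 22.2% of the 36 members and 26 of the 107 kept further genes, beside 24.1% of all genes. EDEM1 was the member in which the sets passed in opposite directions against scramble. No measured technical value was set against these differences, and their origin was not tested.

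Single arrays stood apart from the other 8 of their condition for 2 of 58 genes examined, and chance alone marks about 1 in 20 such groups. DNAJB11 read 10.62 on ARF-2 array 3, and the nearest of the 9 arrays read 10.80. SSR4 read 11.35 on ARF-1 array 2, and the nearest read 11.66. Neither gene passed in any comparison.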

How the results depend on the processing

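No called difference of a member or a further named gene changed direction under any alternative run. Of 833 recomputed differences of called members, 710 kept the call and 123 lost it, and 19 of 36 results kept it throughout. For the further named pathway genes 1281 of 1523 kept the call, and 30 of 64 results kept it throughout. With a random block for the source name 3 of 5 members (PDIA6, XBP1 and MANF) and 15 of these 18 genes lost their call over the 9 arrays. HYOU1 over the 9 arrays kept it under all 26 alternatives, and PDIA6 lost it only when source name was a random block (adjusted p = 0.0519). The count of called members moved between settings, as did the share of all genes called in the same fit. That share is given below, where available, as a percentage in parentheses. The count of 5 members on the 9 arrays (12.5%) became 3 with median scaling (12.6%), 8 with each gene averaged over its probes (15.1%) and 8 with 4 group means (28%). It became 2 with a random block for the source name (2.83%) and 2 with a fold of at least 1.5. It became 9 without the ARF-4 set (33.9%), a fit chosen after seeing the data. Leaving out single arrays gave 2 to 6 (4.31% to 15.7%). ARF-1 gave 6 to 10 without single arrays (24.4% to 30.5%). The 7 members in ARF-2 became 11 with no background correction (34.6%) and 11 with the authors' value table (34.6%), and 6 to 7 without single arrays (22.6% to 28.6%). The 5 in ARF-4 became 8 with no background correction (16.3%), with the authors' value table (16.3%) and with a trended and robust prior (15.2%). They became 1 with only the 6 arrays compared (5.69%), and 1 to 4 without single arrays (5.83% to 9.52%). The F-test count of 8 became 5 to 7 without single arrays. The share of all genes is not given for these F-tests or for the fold rule. Those counts can therefore not be told apart from a change over all genes. The count of ARF-4 against the other sets became 7 to 10 (22.5% to 28.3%). With the replicate number as a block the counts were 3 on the 9 arrays (9.01%) and 2 in ARF-4 (8.67%). On the 9 arrays XBP1 (adjusted p = 0.0736) and MANF (adjusted p = 0.0773) then lost the call. The numbers did not pair the arrays: deviations of same-numbered arrays correlated at -0.0223 to 0.0372, those of other pairs at -0.032 to 0.0209. The cause of these changes was not tested, beyond the smaller number of arrays in fits that leave some out. With 3 scramble arrays, small differences and dim probes are poorly measured.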
